A study of Mus musculus with 4 samples.

Results

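The vomeronasal type 2 receptor (V2R) genes were followed in RNA pulled down from mouse testis with an antibody to TSSK2, a serine/threonine kinase made only in the testis. The members were all genes of the count table whose GENCODE vM21 symbol starts with Vmn2r. There were 122 of them among 21936 genes, all annotated as protein coding, including Vmn2r-ps130 and Vmn2r-ps159, whose symbols carry the mark of a pseudogene. TSSK2 is found in elongating spermatids and marks the late-CB, the RNA granule that the chromatoid body becomes in these cells. The study asked which mRNAs associate with TSSK2 by comparing TSSK2-IP with control IgG-IP. Each group had 2 libraries, numbered replicate 1 and 2, and control IgG-IP was made with mouse IgG in place of the TSSK2 antibody. Both groups came from germ cells of adult C57BL/6 mouse testes with no altered allele or drug treatment named, and in both the cells were cross-linked with formaldehyde and sonicated before the pull-down from the pellet fraction. The labels name the samples as testis, do not say whether the replicates of a group are separate mice, and p-values therefore measure the spread between these samples, which may be technical. No library of the starting lysate was analysed here, so each fold change below compares pull-downs and is not the level of an mRNA in the testis, and more cells of a type in the sample cannot be told apart from more RNA per cell.

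V2R proteins are class C G protein-coupled receptors with a large extracellular domain that binds the ligand. They are best known from the basal sensory neurons of the vomeronasal organ, where they detect peptides and proteins such as exocrine gland-secreting peptides and major urinary proteins and signal through the G protein Gαo and the channel TRPC2. Most such neurons combine a selectively expressed V2R with a broadly expressed member of family C, the genes Vmn2r1 to Vmn2r7.

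Comparisons of coding sequence between relatives show which V2R mRNAs can be told apart by a sequencing read. Vmn2r88, the V2R gene with the largest fold change here, was set beside Vmn2r-ps159, the V2R gene nearest to it in protein sequence at 91.2% identity. Their coding sequences differed at 125 of 2544 aligned bases, and the longest run without a difference was 122 bases, which is shorter than the 150-base reads of the study. The 120-base stretches below lie on the plus strand of GRCm38 at chr14:51411034-51411153 for Vmn2r88 and chr4:156331215-156331334 for Vmn2r-ps159. Each is the first exonic window with the median number of differences, and capitals mark the 5 bases at which they differ.
Vmn2r88: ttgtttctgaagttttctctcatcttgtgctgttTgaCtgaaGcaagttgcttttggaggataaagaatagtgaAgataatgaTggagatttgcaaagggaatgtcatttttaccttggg
Vmn2r-ps159: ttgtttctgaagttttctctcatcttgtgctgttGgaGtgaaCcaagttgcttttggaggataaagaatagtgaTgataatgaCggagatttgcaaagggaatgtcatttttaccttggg

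Vmn2r7, the V2R gene with the most counts, lies beside its close relatives Vmn2r6 and Vmn2r4 on chromosome 3, and is shown because much of its sequence is shared with them. The coding sequences of Vmn2r7 and Vmn2r6 differed at 34 of 2739 aligned bases with a longest identical run of 305 bases, and those of Vmn2r7 and Vmn2r4 at 75 of 2739 with a longest identical run of 294 bases. The windows below lie on the minus strand of GRCm38 at chr3:64719499-64719618, chr3:64559715-64559834 and chr3:64409954-64410073. Capitals mark the 1 base at which Vmn2r6 differs from Vmn2r7, and Vmn2r4 is identical to Vmn2r7 over this window.
Vmn2r7: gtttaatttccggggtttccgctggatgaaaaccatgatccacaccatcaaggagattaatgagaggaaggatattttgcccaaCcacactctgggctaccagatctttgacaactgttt
Vmn2r6: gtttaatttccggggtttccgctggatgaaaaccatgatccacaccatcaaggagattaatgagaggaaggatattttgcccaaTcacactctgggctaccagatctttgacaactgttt
Vmn2r4: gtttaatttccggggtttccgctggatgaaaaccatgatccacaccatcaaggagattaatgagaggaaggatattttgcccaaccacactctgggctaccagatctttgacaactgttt

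Vmn2r29 is shown because its fold change was close to that of Vmn2r88 but rests on a sequence with near copies. Its coding sequence differed from that of Vmn2r46, a gene with no count in any library, at 14 of 2427 aligned bases, with a longest identical run of 1031 bases. The window below, on the minus strand at chr7:7247209-7247328, is identical in Vmn2r46 at chr7:9770452-9770571, so it has no capitals.
Vmn2r29: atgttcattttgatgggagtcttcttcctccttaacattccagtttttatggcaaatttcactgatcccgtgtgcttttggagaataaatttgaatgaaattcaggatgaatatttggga

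Stretches of at least 150 bases and 97% identity with another annotated gene were found in 77 V2R genes. They were not found in 44, among them Vmn2r88, Vmn2r107 and Vmn2r118. The scaffold gene Vmn2r122 had no transcript to search. How reads that fit several genes were counted is not given in the sources used here, so the counts of the 77 genes are uncertain between copies.

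V2R genes took up a small share of every library. The total counts assigned to genes were 4158034 and 4491749 in TSSK2-IP and 9858941 and 3938922 in control IgG-IP. V2R genes received 2073 and 2286 of them in TSSK2-IP, and 1162 and 1768 in control IgG-IP. The share was 0.0499% and 0.0509% in TSSK2-IP and 0.0118% and 0.0449% in control IgG-IP, so the deepest library, control IgG-IP replicate 1, had the smallest share. Between 104 and 109 of the 122 genes had at least 1 count in a given library, and 78 to 94 had more than 3. Values below are counts, or counts per 1000000 (CPM) normalized with TMM factors, which adjust each library's total for its composition. In these units 1 count was worth between 0.156 CPM in control IgG-IP replicate 1 and 0.230 CPM in control IgG-IP replicate 2.

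Of the 122 V2R genes, 48 passed the edgeR filter on low counts and were tested in 1 fit with all other genes that passed. Only Vmn2r88 was called higher in TSSK2-IP, where a call needed both a log2 fold change of 1 or more and an adjusted p of at most 0.05. This is 1 of 48 tested V2R genes (2.08%) beside 0.693% of all 14722 genes tested. No V2R gene was called lower by edgeR's quasi-likelihood test, beside 0% of all genes, and none by DESeq2, while 1 V2R gene was lower at an unadjusted p under 0.05 (2.08%, beside 4.89% of all genes). At that unadjusted threshold 8 V2R genes were higher (16.7%, beside 8.34% of all genes). Both TSSK2-IP libraries were above both control IgG-IP libraries for 16 of the 48 tested V2R genes (33.3%, beside 27.3% of all genes tested) and below both for 6 (12.5%, beside 21.6%).

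**Figure D1:**
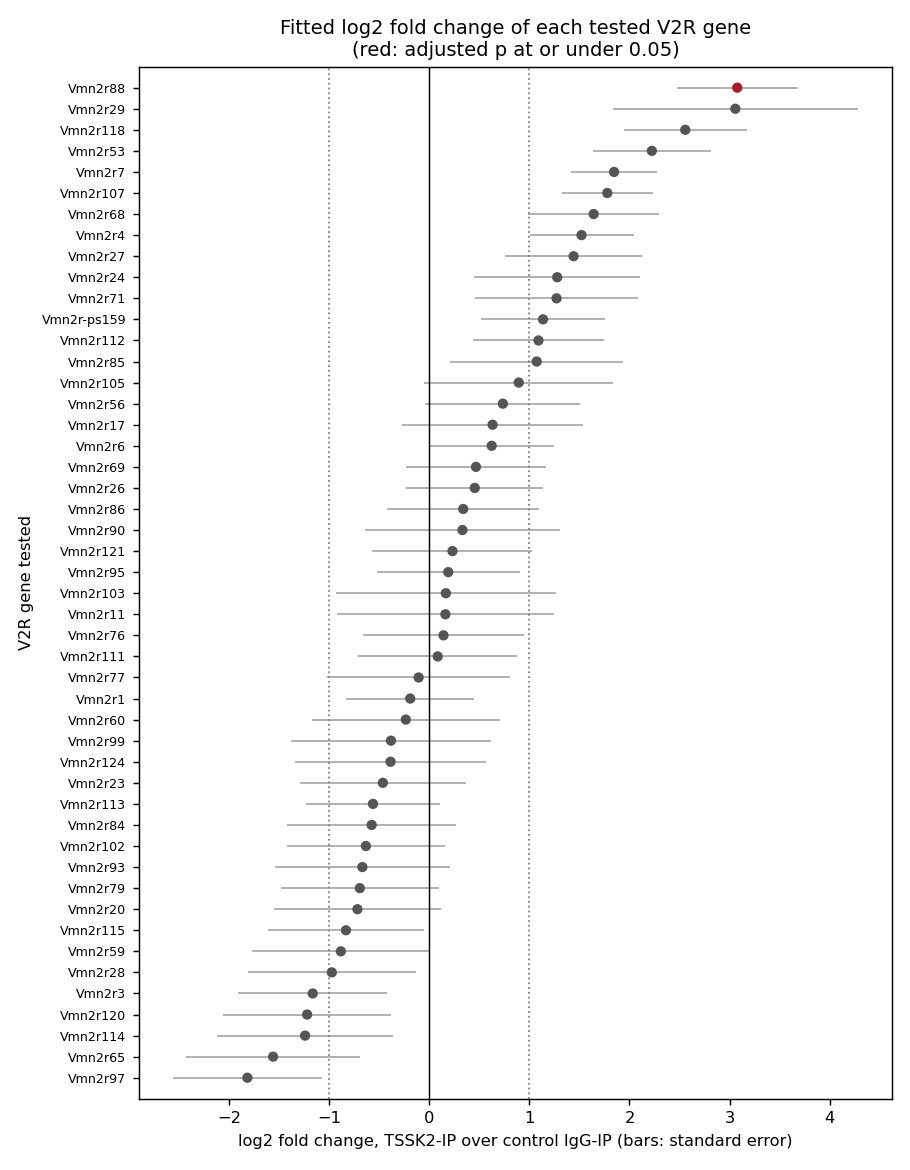
Fitted log2 fold change, TSSK2-IP over control IgG-IP, of the 48 tested V2R genes (points) with standard errors (bars), with dotted lines at 1 and -1. The values run from -1.82 for Vmn2r97 to 3.08 for Vmn2r88, the only gene with an adjusted p at or under 0.05 (red).

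Vmn2r88, known as a haemoglobin receptor of vomeronasal neurons, had 191 and 157 counts in TSSK2-IP and 9 and 31 in control IgG-IP. Both TSSK2-IP libraries were far above both controls, and the controls themselves differed. In normalized units it stood at 39.6 and 29.9 CPM in TSSK2-IP (34.7 ± 6.87, SD, n = 2) and at 1.40 and 7.12 CPM in control IgG-IP (4.26 ± 4.04, SD, n = 2). The fitted log2 fold change was 3.08 with a standard error of 0.60, which is 8.44-fold (adjusted p = 0.0312, quasi-likelihood test of edgeR, adjusted by Benjamini-Hochberg over all genes tested). The gene lies on the plus strand of chromosome 14, at chr14:51410820-51420721 (GRCm38), and is the only V2R gene of the table on that chromosome, so no V2R neighbour could be compared. Its exons overlapped no other annotated gene. The call was lost with upper-quartile normalization (log2 fold change 2.94, adjusted p = 0.181, edgeR) and without either TSSK2-IP library (log2 fold change 2.84 and adjusted p = 0.264 without replicate 1, 3.24 and 0.0522 without replicate 2, edgeR). The fold change stayed close to its value with all 4 libraries in these fits, in which calls among all genes fell from 102 to 20, 24 and 28. Leaving out a control library moved the log2 fold change to 2.28 (without replicate 1) or 4.55 (without replicate 2).

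The nearest relative of Vmn2r88, Vmn2r-ps159 on chromosome 4, had 51 and 58 counts in TSSK2-IP and 13 and 35 in control IgG-IP. Its TSSK2-IP libraries were also above both controls, but by less. The log2 fold change was 1.14 with a standard error of 0.62 (adjusted p = 0.422, edgeR's quasi-likelihood test). The difference between the fold changes of these 2 genes was not tested.

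Vmn2r88 was 1 of 6 V2R genes that the study included among its TSSK2-associated mRNAs, the others being Vmn2r4, Vmn2r7, Vmn2r53, Vmn2r107 and Vmn2r118. That list was chosen on these same libraries, so the direction of its members is not independent evidence. All 6 had both TSSK2-IP libraries above both control IgG-IP libraries. The study made its list with DESeq2 at the same thresholds, whereas the main test here was the quasi-likelihood test of edgeR. That test called 1 of the 6, and DESeq2 as run here called 2, Vmn2r7 and Vmn2r88. DESeq2 was run here only on the genes that passed the edgeR filter, and called 152 of all 14722 higher, fewer than the whole list of the study. The smaller number is therefore not particular to V2R genes, and why DESeq2 called fewer of them here was not tested.

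Vmn2r7, a family C receptor that is co-expressed with other V2Rs in sensory neurons, was the most abundant V2R. It had 560 and 537 counts in TSSK2-IP and 160 and 156 in control IgG-IP. In CPM these were 116 and 102 (109 ± 9.83, SD, n = 2) against 25.0 and 35.8 (30.4 ± 7.69, SD, n = 2), and the groups did not overlap. The log2 fold change was 1.85 with a standard error of 0.43, the smallest error of any V2R gene (adjusted p = 0.0782, edgeR's quasi-likelihood test). DESeq2 called Vmn2r7 as well as Vmn2r88, which makes 2 of 48 V2R genes (4.17%, beside 1.03% of all genes with an adjusted p). The gene shares a stretch of 8921 bases at 97.8% identity with Vmn2r6 and lies on the minus strand at chr3:64685044-64844765.

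Vmn2r107 had 231 and 207 counts in TSSK2-IP and 51 and 77 in control IgG-IP. It was the second most abundant V2R gene, at 43.6 ± 6.01 CPM against 12.8 ± 6.88 CPM (SD, n = 2), and its groups were apart. The log2 fold change was 1.78 with a standard error of 0.46 (adjusted p = 0.118, edgeR). Its exons overlap those of a processed pseudogene on the same strand over 609 bases, and the pseudogene is not a row of the count table.

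Vmn2r118 had 47 and 57 counts in TSSK2-IP and 13 and 6 in control IgG-IP, with a log2 fold change of 2.56 and a standard error of 0.61 (adjusted p = 0.0845, edgeR). It was 1 of only 2 tested V2R genes with a lower CPM in control IgG-IP replicate 2 than in replicate 1. No other V2R in the table was close to it in sequence, the nearest protein being that of Vmn2r13 at 53.9% identity.

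Vmn2r53 stood at 14.9 and 19.2 CPM in TSSK2-IP and at 1.56 and 5.97 CPM in control IgG-IP, with a log2 fold change of 2.22 and a standard error of 0.59 (adjusted p = 0.135, edgeR). Vmn2r4, the last of the 6 and a family C member, had 55 and 78 counts in TSSK2-IP and 21 and 26 in control IgG-IP. Its log2 fold change was 1.52 with a standard error of 0.52 (adjusted p = 0.265, edgeR). In all 6 genes the lower TSSK2-IP library exceeded the higher control library.

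**Figure D2:**
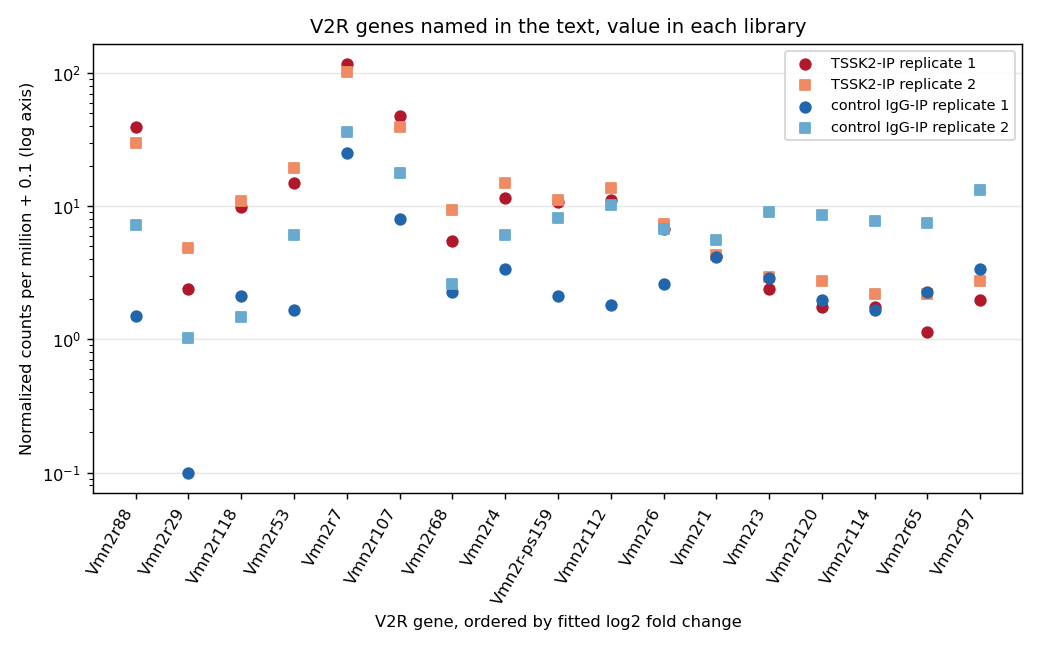
Normalized CPM plus 0.1 (log axis) of 17 V2R genes in each of the 4 libraries, ordered by log2 fold change. Vmn2r7 is the highest in every library, the TSSK2-IP points lie above both control points from Vmn2r88 to Vmn2r112, and control IgG-IP replicate 2 is the highest point from Vmn2r1 to Vmn2r97.

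Family C was not of one kind. Of its 7 genes, all in a cluster on chromosome 3, 5 were tested and 3 had a positive log2 fold change, with a median of 0.62. Beside Vmn2r7 and Vmn2r4, Vmn2r6 had 32 and 38 counts in TSSK2-IP and 16 and 29 in control IgG-IP (log2 fold change 0.62, standard error 0.63). In CPM, the Vmn2r6 values of 6.63 and 7.23 in TSSK2-IP overlapped the 6.66 of control IgG-IP replicate 2. Vmn2r1 had 20 and 22 counts against 26 and 24 (log2 fold change -0.19, standard error 0.64), and its groups overlapped. Vmn2r3 had 11 and 15 counts against 18 and 39 (log2 fold change -1.17, standard error 0.75), and its groups overlapped too. Vmn2r2 had 5 and 4 counts against 5 and 12, and Vmn2r5 had 5 and 4 against 7 and 20, and neither was tested. Vmn2r7 held 560 of 688 and 537 of 698 of the family C counts in TSSK2-IP, and 160 of 253 and 156 of 306 in control IgG-IP.

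Per kilobase of annotated exon, which allows levels to be compared between genes, Vmn2r7 was the highest of these genes in TSSK2-IP at 11.4 CPM per kb, followed by Vmn2r88 at 7.56, Vmn2r107 at 4.24 and Vmn2r-ps159 at 3.52. In control IgG-IP on the same scale the levels were 3.18 for Vmn2r7, 0.927 for Vmn2r88, 1.25 for Vmn2r107 and 1.64 for Vmn2r-ps159. Vmn2r88 ranked below Vmn2r-ps159 and Vmn2r107 in the controls and above both in TSSK2-IP, although the control values of the 3 genes overlapped between libraries. The family C genes Vmn2r1 to Vmn2r6 lay between 0.148 and 1.37 CPM per kb in TSSK2-IP. Exon lengths here are the union of all annotated isoforms, and genes with long annotated untranslated parts appear lower on this scale.

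Among the other V2R genes with a large positive fold change, Vmn2r29 had 11 and 25 counts in TSSK2-IP and 0 and 4 in control IgG-IP. Its log2 fold change of 3.06 was close to that of Vmn2r88, but with a standard error of 1.23 (adjusted p = 0.324, edgeR). It shares sequence with 11 other genes, and its exons overlap those of the counted gene Gm45844 over 2228 bases on the same strand. Vmn2r68 had 26 and 49 counts against 14 and 11 (log2 fold change 1.64, standard error 0.65, adjusted p = 0.321, edgeR). Vmn2r112 had 53 and 71 counts against 11 and 44 (log2 fold change 1.09, standard error 0.65, adjusted p = 0.467, edgeR). In all 3 genes both TSSK2-IP libraries lay above both controls, by little for Vmn2r112.

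At the other end, Vmn2r97 had 9 and 14 counts in TSSK2-IP and 21 and 57 in control IgG-IP. Both TSSK2-IP libraries were below both controls, at 1.87 and 2.66 CPM against 3.28 and 13.1 CPM. The log2 fold change was -1.82 with a standard error of 0.74 (adjusted p = 0.331, edgeR), and it was the V2R gene that was lower at an unadjusted p under 0.05. Vmn2r65 also had both TSSK2-IP libraries below both controls, with 5 and 11 counts against 14 and 32 (log2 fold change -1.56, standard error 0.87). Vmn2r114 had 8 and 11 counts against 10 and 33 (log2 fold change -1.24), and Vmn2r120 had 8 and 14 against 12 and 37 (log2 fold change -1.22), and in both genes the groups overlapped in CPM. In each of these genes control IgG-IP replicate 2 was the highest of the 4 libraries.

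Across all 48 tested V2R genes, 28 had a positive log2 fold change (58.3%, beside 49.2% of all genes tested), and the median was 0.18, beside -0.02 over all genes tested. This holds only for genes that passed the filter on low counts. Without any filter 49 of 114 V2R genes were positive, with a median of -0.38, beside -0.15 over all genes. The log2 fold change was at least 1 in 14 genes and -1 or below in 5. By abundance, of the 10 genes with the highest mean over all 4 libraries (5.23 to 69.8 CPM, a mean that includes the TSSK2-IP values), 9 had a positive log2 fold change, with a median of 1.65. Of the remaining 38 (1.55 to 4.86 CPM), 19 had a positive one, with a median of -0.01. The 10 include the 6 genes that the study listed as higher on these libraries, so their direction was partly fixed by that choice. The share among all genes of like abundance is not given here, so the split is a description only. The standard error of a V2R gene was between 0.43 and 1.23, with a median of 0.80, against a median of 0.52 over all genes tested, so that V2R genes were measured less precisely than a typical gene.

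The sum over all V2R genes was 430 and 435 CPM in TSSK2-IP and 181 and 406 CPM in control IgG-IP. The TSSK2-IP libraries were close to each other (432 ± 3.71, SD, n = 2) and slightly above control IgG-IP replicate 2, whereas the controls were far apart (294 ± 159, SD, n = 2). The ratio of the means was 1.47. With a single control library it was 1.06 (replicate 2 alone) or 2.38 (replicate 1 alone). With 2 libraries against 2, an exact two-sided permutation test of a single value cannot go below p = 0.333, and none was made.

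Within this sum, the 6 genes listed by the study held 55.8% and 49.7% of all V2R counts in TSSK2-IP and 22.7% and 18.2% in control IgG-IP. Summed, they stood at 240 and 216 CPM in TSSK2-IP and at 41.2 and 74.0 CPM in control IgG-IP. The 116 other V2R genes summed to 190 and 219 CPM in TSSK2-IP, which lies between the 140 and 332 CPM of the controls. Since the 6 were chosen on these libraries, the split is a description of where the V2R counts lie, with no test.

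**Figure D3:**
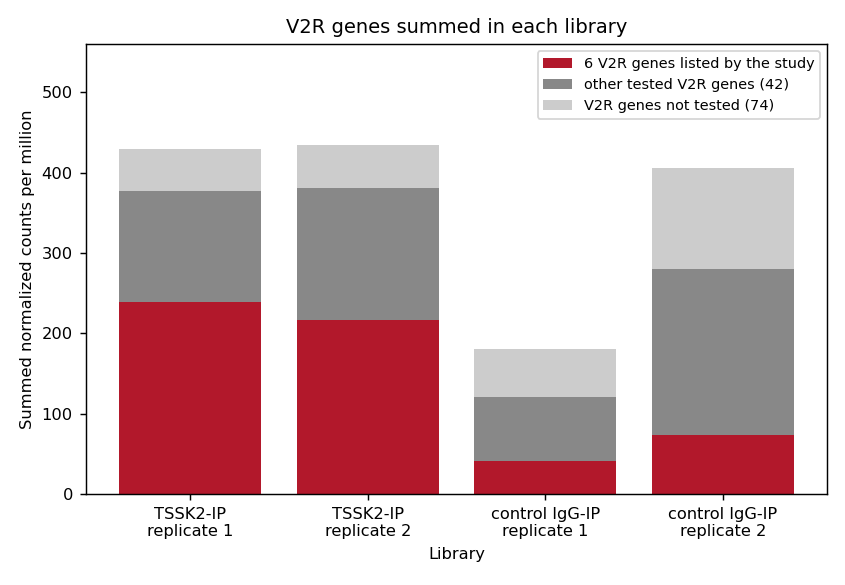
Summed normalized CPM of the V2R genes in each library, split into the 6 genes listed by the study (red), the 42 other tested genes (dark grey) and the 74 genes not tested (light grey). The red part is 240 and 216 in TSSK2-IP against 41.2 and 74.0 in control IgG-IP, while the grey parts are the largest in control IgG-IP replicate 2.

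The 74 V2R genes that were not tested had at most 29 counts in any library. Together they held 254 and 285 counts in TSSK2-IP and 390 and 551 in control IgG-IP. In CPM these sums were 52.7 and 54.2 against 60.8 and 127, so both TSSK2-IP libraries were below both controls. Of the 66 untested genes with any count, both TSSK2-IP libraries lay above both controls for 5 (7.58%) and below both for 23 (34.8%). Among all 6545 genes with a count that were not tested, these shares were 9.08% and 24.1%.

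A level of 3 counts or fewer in a library was taken as too low to read. By this mark 19 of the 122 genes were at or under 3 counts in every library, and 8 of these had no count at all, namely Vmn2r21, Vmn2r33, Vmn2r39, Vmn2r40, Vmn2r43, Vmn2r46, Vmn2r47 and Vmn2r122. In single groups, 23 genes were at or under 3 counts in both control IgG-IP libraries and 32 in both TSSK2-IP libraries. No gene at this level in both controls was above it in both TSSK2-IP libraries, while 8 genes at this level in both TSSK2-IP libraries were above it in both controls. Vmn2r108, for example, had 2 and 2 counts in TSSK2-IP and 10 and 17 in control IgG-IP. The shares of all genes with these patterns are not given here, so they are no result about V2R genes in particular. The mark of 3 counts stood for 0.622 and 0.571 CPM in TSSK2-IP and 0.468 and 0.689 CPM in control IgG-IP. None of the 48 tested genes was at or under 3 counts in both libraries of a group, so none of the fold changes above is a bound. Vmn2r116, the receptor of the peptide ESP1, was not tested, with 5 and 5 counts in TSSK2-IP and 10 and 4 in control IgG-IP. A zero count in the shallowest library allows up to 0.689 CPM, so a lower level was not detectable at this depth.

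The V2R genes lie on several chromosomes, which differed in how many members could be tested. On chromosome 7, 13 of 51 genes were tested, 7 with a positive log2 fold change and a median of 0.14. On chromosome 17, 17 of 32 were tested, 8 with a positive log2 fold change and a median of -0.38. Chromosome 17 held both high and low values, at places far apart, with Vmn2r118 (chr17:55590370-55625192) at 2.56 and Vmn2r97 (chr17:18914300-18958087) at -1.82. On chromosomes 5, 6 and 10, 10 of 28 genes were tested, with medians of 0.40, 0.45 and 0.34. Counted by chromosome, the tested members lay on both sides of 0 on chromosomes 3, 6, 7, 10 and 17.

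**Figure D4:**
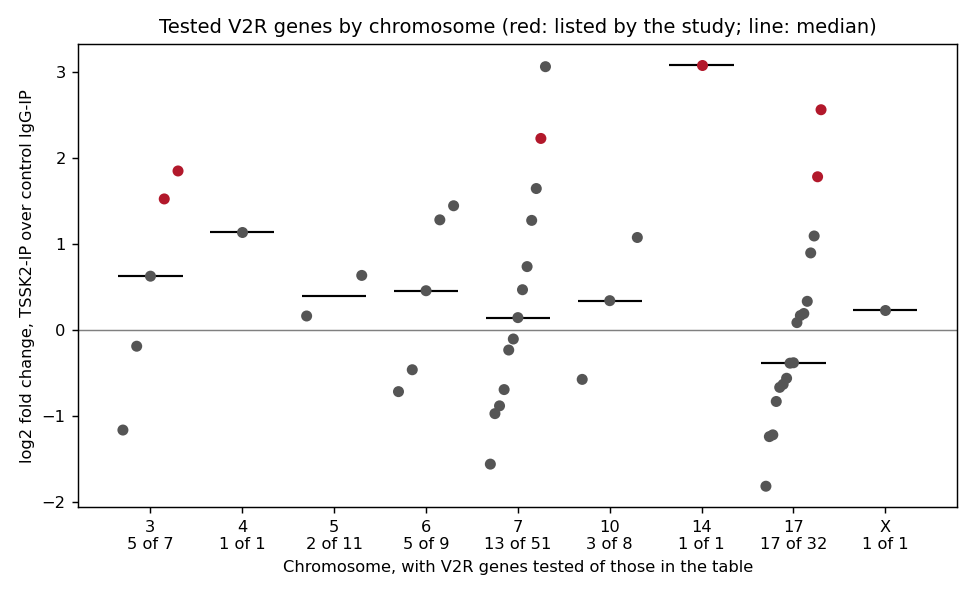
Fitted log2 fold change, TSSK2-IP over control IgG-IP, of the tested V2R genes by chromosome, with the median of each chromosome as a line and the 6 genes listed by the study in red. On chromosomes 7 and 17 the points spread on both sides of 0, from -1.56 to 3.06 and from -1.82 to 2.56.

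Shared sequence and annotated length were set beside the fold changes. Among the 29 tested genes that share a stretch with another gene, 15 had a positive log2 fold change (median 0.08), and among the 19 that do not, 13 had one (median 0.23). The tested genes were longer, with a median of 10121.5 annotated exon bases against 5043.5 for the untested ones.

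The V2R fold changes moved most when a control library was left out. Of the 48 tested genes, 46 had a higher CPM in control IgG-IP replicate 2 than in replicate 1, and the summed V2R level was 2.24-fold higher there. The share among all genes tested is not given here, so this count is no result about V2R genes in particular. Over the better-counted genes tested, chi-square per degree of freedom between replicates was 74.9 in control IgG-IP and 3.15 in TSSK2-IP. Without control IgG-IP replicate 1 the median log2 fold change was -0.41, with 19 genes positive. In that fit 7 V2R genes were called higher (14.6%, beside 5.47% of all genes), namely the 6 listed by the study and Vmn2r68. A further 5 were called lower (beside 2.16% of all genes), namely Vmn2r3, Vmn2r65, Vmn2r97, Vmn2r114 and Vmn2r120. Without control IgG-IP replicate 2 the median was 1.06, 36 genes were positive, and 17 were called higher (35.4%, beside 19.4% of all genes). In that fit no V2R gene was called lower, beside 17.9% of all genes. In both fits a lone control library is assumed to vary as the TSSK2-IP libraries do. All 6 listed genes kept a log2 fold change above 1 whichever library was left out. The study had chosen them at a log2 fold change of 1 or more on these same libraries, so this is not independent evidence. Without any filter on low counts, 114 V2R genes were tested and 4 were called higher (3.51%, beside 1.33% of all genes), namely Vmn2r53, Vmn2r88, Vmn2r107 and Vmn2r118.

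**Figure D5:**
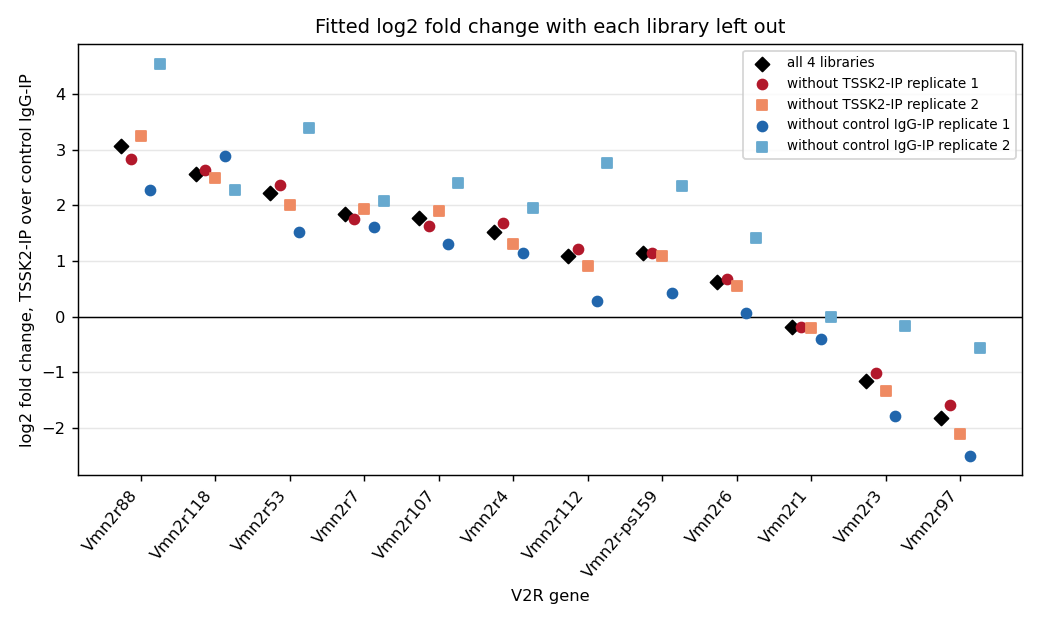
Fitted log2 fold change, TSSK2-IP over control IgG-IP, of 12 V2R genes with all 4 libraries (black) and with each library left out. For Vmn2r88 the values run from 2.28 to 4.55, and the largest shifts in most genes come from leaving out a control IgG-IP library (blue).

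The other receptor families of the nose had the same difference between the control libraries. The 210 V1R genes (Vmn1r), which serve the apical vomeronasal neurons, summed to 323 and 363 CPM in TSSK2-IP and 176 and 362 CPM in control IgG-IP. Of their 41 tested members 24 were positive, with a median log2 fold change of 0.40 and 2 called higher. The 1135 olfactory receptor genes (Olfr) summed to 1758 and 1859 CPM against 685 and 1490 CPM, with 91 of 112 tested members positive, a median of 1.40 and 18 called higher. The share with a positive log2 fold change was 58.5% of tested V1R genes and 81.25% of tested olfactory receptor genes. Over all 14722 genes tested, 49.2% were positive, the median was -0.02, and 102 (0.693%) were called higher. The families share all 4 libraries, and the difference between them was not tested.

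Genes listed for signalling in V2R neurons and related sensory neurons gave no call. The list of 27 genes for G proteins, channels, chaperones and markers had 12 tested members. None was called by edgeR's quasi-likelihood test or by DESeq2, and none had an unadjusted p under 0.05. Of all genes tested, edgeR called 0.693% higher and 0% lower, and DESeq2 called 1.03% higher. At the unadjusted threshold 8.34% of all genes were higher and 4.89% lower. With calls this rare, no call among 12 genes says little about them. The median log2 fold change was 0.02, with 6 of 12 positive. The list also held genes of other sensory neurons, such as Gnai2 and Meis2, so these values do not describe V2R neurons alone. Gnao1, the gene of Gαo, had 423 and 396 counts in TSSK2-IP and 632 and 205 in control IgG-IP (log2 fold change 0.16, standard error 0.46). Gnb1 and Gng8, G protein β and γ subunits, had the smallest p-values of the list. Gnb1 had 260 and 295 counts against 886 and 298 (log2 fold change -0.91, standard error 0.46, adjusted p = 0.401, edgeR), and Gng8 had 19 and 21 against 9 and 5 (log2 fold change 1.61, standard error 0.84, adjusted p = 0.412, edgeR). Calr4, a chaperone of the calreticulin family, had 12 and 17 counts against 13 and 15. The 9 H2-M genes, whose products accompany V2Rs on the neuron surface, had at most 12 counts in any library, and none was tested.

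Spermatid and spermatocyte markers were abundant in all 4 libraries. The 8 spermatid markers summed to 3608 and 3260 CPM in TSSK2-IP and 5525 and 3835 CPM in control IgG-IP, and the 4 spermatocyte markers to 889 and 838 against 1507 and 926 CPM. The 4 spermatogonia markers were low, at 26.1 and 23.6 CPM in TSSK2-IP and 27.6 and 31.0 CPM in control IgG-IP. Of the 4 markers of vomeronasal neurons, the channel gene Trpc2 had no count in any library, and Omp had 0 and 3 counts in TSSK2-IP and 0 and 8 in control IgG-IP. Whether the exons of Trpc2 overlap another gene was not checked, so its lack of counts need not mean absence. Gnao1 and Gng8, the other two, are not particular to those neurons. The sums of the somatic cell markers were lowest in control IgG-IP replicate 1, as the V2R sum was, though this did not hold for every single marker. The 4 Sertoli cell markers summed to 24.7 and 15.8 CPM in TSSK2-IP and 7.02 and 20.9 CPM in control IgG-IP, and the 4 Leydig cell markers to 28.0 and 28.0 against 11.1 and 22.3 CPM. None of the 4 Sertoli or 4 Leydig markers was at 0 in a whole group, and their part in the V2R values was not tested.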

How the data were processed

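RNA from 2 TSSK2-IP and 2 control IgG-IP samples was sequenced from directional libraries without rRNA removal. Per the submitters' processing notes, the authors trimmed reads with Trimmomatic 0.39, aligned them to GRCm38 with STAR 2.7.10a (the study's methods name another STAR version) and counted them per gene with featureCounts 2.0.3. The strand setting is not given in the sources used here. The deposited values are raw counts per Ensembl gene, and the 4 columns were matched to samples by name.

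Symbols, positions and transcripts came from GENCODE vM21, which held 21894 of 21936 identifiers. Shared stretches of transcripts were found with BLAST+ 2.17.0 and proteins compared with Biopython 1.88. Counts were tested with edgeR 4.0.16 (R 4.3.3; filterByExpr, TMM, glmQLFit and glmQLFTest), with Benjamini-Hochberg adjustment over all 14722 genes tested. Each standard error given was derived from this test, as the absolute log2 fold change divided by the square root of its F statistic. DESeq2 1.42.0, other normalizations and filters, a replicate block and leaving out each library were alternatives. The fits were tested on simulated data.

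The members, lists and tests were chosen with earlier results of these data known. Genes named were those called, Vmn2r1 to Vmn2r7, the 6 V2R genes listed by the study, the 8 highest and 5 lowest fold changes, the 5 most abundant, and the nearest relative of a called gene. In each gene list those called and the 2 with the smallest p were named. Vmn2r108, Vmn2r116, Gnao1, Gnai2, Meis2, Calr4 and the genes without counts were named after their values were seen. The total counts of 3938922 to 9858941 per library limit precision to counting error and the spread of 2 libraries.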

Additional observations from a re-analysis of the deposited data

How the results depend on the processing

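The number of V2R genes called higher (1, beside 102 of all 14722 genes tested) was 2 with DESeq2 (beside 152) and 0 with upper-quartile normalization (beside 20). It was 4 with no filter on low counts (beside 283 of 21267). When at least 10 counts were required in every library it was 0 (beside 29 of 12540), and Vmn2r88 was not among the genes tested. With calls this rare, the values of 0 say little about V2R genes. Besides Vmn2r88, the replicate block called 4 others of the 6 genes listed by the study, a list chosen on these same libraries. They were Vmn2r7 (adjusted p = 0.0459), Vmn2r53 (0.00709), Vmn2r107 (0.0259) and Vmn2r118 (0.0230), all from edgeR. The number called higher was 5 there, beside 274 of all 14722 genes tested. It ranged from 0 to 17 when a library was left out. The number called lower (0) ranged from 0 to 5 when a library was left out, 5 being the value without control IgG-IP replicate 1. The number tested (48) was 114 with no filter and 21 with the strict one, and the number with a positive log2 fold change (28) was 49 and 13 there, since the number tested changed. It ranged from 19 to 36 when a library was left out. The median log2 fold change (0.18) was -0.38 with no filter, and ranged from -0.41 to 1.06 when a library was left out, -0.41 being the value without control IgG-IP replicate 1. The cause was not tested. It was 0.23 without the V2R genes that share a stretch with another gene. The summed ratio (1.47) ranged from 1.06 to 2.38 when a library was left out. Calls made without a control library rest on the spread of the TSSK2-IP libraries alone and are not reliable.

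The labels give the groups the same replicate numbers, but not what a number stands for, and the 2 pairs' deviations correlated at 0.13. The replicate block raised the calls among all genes from 102 to 274. With DESeq2 size factors the median over all genes moved from -0.02 to -0.14 and that of the V2R genes from 0.18 to 0.07, and Vmn2r88 kept its call (adjusted p = 0.0181, edgeR). Of 21 single genes followed, none changed its sign together with a call. Vmn2r88 lost its call with upper-quartile normalization (log2 fold change 2.94) and without either TSSK2-IP library (2.84 and 3.24).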

Other observations

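The other class C G protein-coupled receptors gave no call. Of 22 listed genes, 17 were tested, 5 had a positive log2 fold change, and the median was -0.28. None was called by edgeR or by DESeq2, beside 0.693% of all genes called higher and 0% called lower by edgeR. At an unadjusted p under 0.05 in edgeR 1 was higher and 1 lower, beside 8.34% and 4.89% of all genes tested. With calls this rare, no call among 17 genes says little about them. Gprc5b, an orphan receptor, had 124 and 168 counts in TSSK2-IP and 24 and 77 in control IgG-IP, and both TSSK2-IP libraries were above both controls. Its log2 fold change was 1.45 with a standard error of 0.57 (adjusted p = 0.316, quasi-likelihood test of edgeR). Gabbr1, a subunit of the GABA-B receptor, had 64 and 82 counts against 260 and 105, and both TSSK2-IP libraries were below both controls in CPM. Its log2 fold change was -1.17 with a standard error of 0.42 (adjusted p = 0.281, same test). The taste receptor subunit gene Tas1r1 had 95 and 119 counts against 160 and 85 (log2 fold change -0.07), and Casr, the calcium-sensing receptor gene, had 17 and 9 against 52 and 24 (log2 fold change -1.39). These 2 genes were named after their values were seen.

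Genes for protein ligands of V2Rs were too low to test. Of 41 genes for exocrine gland-secreting peptides, major urinary proteins and haemoglobin chains, none passed the filter, 13 were at or under 3 counts in every library and 2 had no count. Summed, they stood at 16.0 and 11.4 CPM in TSSK2-IP and 16.5 and 29.9 CPM in control IgG-IP.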
